A study of Rattus norvegicus with 34 samples.

Results

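The 807 windows described here carried the highest methylated DNA immunoprecipitation (MeDIP) signal in sperm of control-lineage rats. Each is a window of 1 kb on chromosomes 1 to 20 with a mean of at least 10 RPKM (reads per kilobase of window, scaled by the reads of the library) over the 6 F1 control pools. Each also had a summed control count under 10 times that of at least 1 adjacent window, which left out isolated windows between near-empty neighbours. Of 2618741 autosomal windows, 922 reached the threshold and 115 of these were isolated, so that 807 windows, or 0.0308% of autosomal windows, are members. A further 50 windows on X, Y and the mitochondrial genome reached the threshold and were left out. The control values chose the members, so control levels are given as a description, and only the F2 to F1 ifosfamide comparison uses no value behind the choice.

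The study asked whether chemotherapy of pubertal male rats alters sperm DNA methylation in later generations. Ifosfamide is an alkylating chemotherapy drug. The F2 ifosfamide group was 6 pools of 8 to 9 males each, descended through F1 breeding within the lineage from 5 F0 males injected intraperitoneally with 8.5 mg/kg ifosfamide on days 26, 29 and 32 of age. The F1 ifosfamide group was 6 pools of 3 to 4 sons of those F0 males. The F1 control group was 6 pools of 3 to 4 sons of 3 F0 males given 1.1 mL/kg phosphate-buffered saline (PBS) on the same days. All were outbred Sprague Dawley SD (Harlan) rats, and only F0 males were injected. DNA came from cauda epididymal sperm after somatic cells had been removed by sonication and washing. Coordinates are those of build Rnor_6.0, for which no genome or annotation was used here. The sperm label was therefore not checked against marker genes, windows carry no gene names, and no sequence is printed. The labels give 43 F2 ifosfamide males, fewer than the 48 that 6 pools of at least 8 would need, so some F2 males may be in more than 1 pool. They give 18 F1 ifosfamide males, just enough for 6 pools of 3, so a pool of 4 would mean shared males. For F1 control they give 25 males.

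In MeDIP an antibody against 5-methylcytosine pulls down sheared, denatured DNA, and the recovered fragments are sequenced. In mammals this base lies mostly at CpG sites, and mature sperm DNA is methylated over most of its length except at CpG-dense promoters. Read density in the assay rises with the methylation of a stretch, with its number of CpG sites and with its number of copies in the genome, and these cannot be told apart from read counts alone. Windows of extreme read density are commonly handled apart from the rest of the genome in enrichment sequencing.

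Libraries held 27424144 to 36309987 window counts in F2 ifosfamide sperm, 25531658 to 39440265 in F1 ifosfamide sperm and 23336048 to 34051679 in F1 control sperm. The median member had 435 to 561 counts per F2 ifosfamide library, 400 to 598 per F1 ifosfamide library and 341 to 487 per F1 control library, and the lowest count of any member in any library was 88. A read was counted in 1.16 to 1.23 windows in F2 ifosfamide pools, 1.17 to 1.25 in F1 ifosfamide pools and 1.16 to 1.22 in F1 control pools, so adjacent windows share reads. F1 ifosfamide pools 1 and 2 stood apart from the other pools of their group over the members. Their chi-square per degree of freedom was 8.42 against each other and 20.1 to 33.9 against pools 3 to 6, which differed among themselves by 10.5 to 16.9. Values as high also occurred within the other groups, with 36.1 between F2 ifosfamide pools 1 and 4 and 35.7 between F1 control pools 3 and 6. They also had the highest numbers of windows per read of their group (1.24 and 1.25), and the numbers of called members in the comparisons that use them are also given without them.

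The members held about the same share of autosomal counts in the 3 groups. They took 2.43 ± 0.11% in F2 ifosfamide pools, 2.41 ± 0.09% in F1 ifosfamide pools and 2.36 ± 0.07% in F1 control pools (SD, n = 6 each). The ranges over pools, 2.26% to 2.52% in F2 ifosfamide, 2.29% to 2.50% in F1 ifosfamide and 2.29% to 2.49% in F1 control sperm, overlapped throughout. The median member had a mean of 19.1 RPKM in F2 ifosfamide, 18.3 RPKM in F1 ifosfamide and 17.5 RPKM in F1 control sperm, against medians of 0.27 RPKM over all autosomal windows in each group. The threshold was 37.3 times the F1 control median of autosomal windows. Levels fell off steeply within the set: 465 members (57.6%) had under 20 RPKM in control sperm, 99 had at least 50, 36 at least 100 and 16 at least 200. The 10 highest members held 18.6% of the control counts of all 807.

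The threshold cuts through a continuous range of levels. Just above it, chr13:109166001-109167000 averaged 11.4 RPKM in F2 ifosfamide, 8.86 RPKM in F1 ifosfamide and 10.005 RPKM in F1 control sperm. At chr16:83265001-83266000 the means were 10.3, 7.93 and 10.01 RPKM in F2 ifosfamide, F1 ifosfamide and F1 control sperm, and at chr16:21678001-21679000 they were 10.1, 10.4 and 10.02 RPKM in the same order of groups. The nearest windows below it, which are not members, were chr6:31062001-31063000 with 13.7 RPKM in F2 ifosfamide, 12.1 RPKM in F1 ifosfamide and 9.997 RPKM in F1 control sperm, chr17:11800001-11801000 with 11.3, 10.1 and 9.988 RPKM, and chr1:24939001-24940000 with 9.75, 11.5 and 9.987 RPKM. Windows on either side of the threshold thus had like levels in F1 control sperm and overlapping levels in F2 ifosfamide sperm. In F1 ifosfamide sperm the 3 below it had 10.1 to 12.1 RPKM and the 3 above it 7.93 to 10.4 RPKM.

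The 5 highest members lay in 2 clusters, on chromosomes 1 and 13. At chr1:180808001-180809000, the highest member in control sperm, the lowest, median and highest pool had 561, 640 and 707 RPKM in F2 ifosfamide sperm, 622, 709 and 760 RPKM in F1 ifosfamide sperm and 567, 715 and 755 RPKM in F1 control sperm. The 3 groups overlapped, and the F2 ifosfamide to F1 ifosfamide difference was -0.10 on the log2 scale (SE 0.17), with an adjusted p of 0.823 in edgeR's quasi-likelihood test. Its control mean was 2595 times the median autosomal window. In the same run, chr1:180806001-180807000 averaged 575 ± 63.0 RPKM in F2 ifosfamide, 705 ± 47.3 RPKM in F1 ifosfamide and 642 ± 101 RPKM in F1 control sperm (SD, n = 6 each), and was the highest of all members in F1 ifosfamide sperm. At chr1:180807001-180808000 the means were 455 ± 50.9 RPKM in F2 ifosfamide, 529 ± 33.6 RPKM in F1 ifosfamide and 498 ± 62.6 RPKM in F1 control sperm. Further along the same cluster, chr1:180704001-180705000, averaged 431 ± 50.6, 498 ± 35.9 and 469 ± 55.0 RPKM in F2 ifosfamide, F1 ifosfamide and F1 control sperm. On chromosome 13, chr13:33504001-33505000 averaged 562 ± 87.7 RPKM in F2 ifosfamide, 636 ± 56.7 RPKM in F1 ifosfamide and 594 ± 64.9 RPKM in F1 control sperm. Pools of the groups overlapped at each of these 5 windows and none was called in any comparison.

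The longest runs of adjacent members had lower peaks. The longest, of 24 windows, lay on chromosome 14, and its highest member, chr14:46605001-46606000, had 204, 226 and 251 RPKM in the lowest, median and highest F2 ifosfamide pool, 218, 248 and 260 RPKM in F1 ifosfamide pools and 156, 211 and 289 RPKM in F1 control pools. A run of 16 on chromosome 1 peaked at chr1:11945001-11946000 with 90.5 ± 10.1 RPKM in F2 ifosfamide, 91.3 ± 6.14 RPKM in F1 ifosfamide and 75.3 ± 12.0 RPKM in F1 control sperm. Both further runs of 12 lay in the same chromosome 14 cluster as the run of 24, with peaks of 105 ± 21.8, 99.2 ± 19.6 and 80.3 ± 15.4 RPKM at chr14:46531001-46532000 and of 94.5 ± 9.92, 91.3 ± 6.45 and 75.4 ± 11.9 RPKM at chr14:46548001-46549000 in F2 ifosfamide, F1 ifosfamide and F1 control sperm. The groups overlapped at these 4 peaks. A run of 13 on chromosome 2 peaked at chr2:49365001-49366000 with 22.0, 24.2 and 31.6 RPKM in the lowest, median and highest F2 ifosfamide pool, 26.9, 31.1 and 46.8 RPKM in F1 ifosfamide pools and 24.4, 29.7 and 30.9 RPKM in F1 control pools. It was the only one of the 10 highest-level and longest-run windows named here that was called, lower in F2 than in F1 ifosfamide sperm by a log2 fold change of -0.42 (SE 0.12, adjusted p = 0.042 by edgeR). That call was lost without any 1 of F1 ifosfamide pools 3, 4 and 6 and F2 ifosfamide pools 2 to 6, with adjusted p of 0.054 to 0.19.

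**Figure D1:**
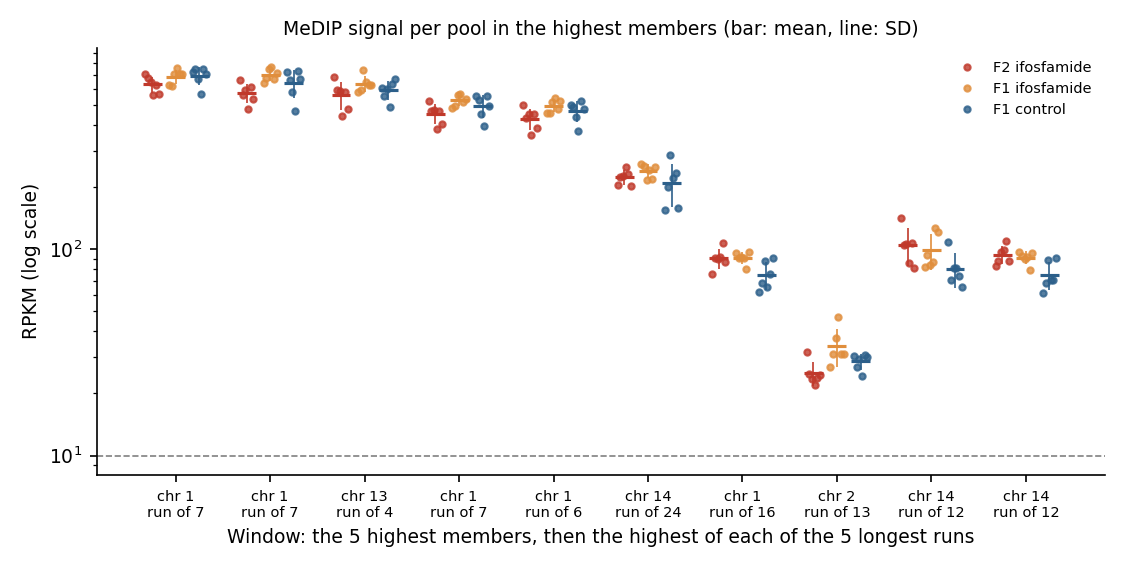
RPKM on a log axis in each of the 6 F2 ifosfamide, 6 F1 ifosfamide and 6 F1 control pools (points) for the 5 highest members and the highest member of each of the 5 longest runs, with the mean (bar) and SD (line); the dashed line is the threshold of 10 RPKM. The 5 highest members lie between 359 and 766 RPKM in every pool and the groups overlap at each window.

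Members were spread unevenly over the genome. Chromosome 1 held 239 of them (29.6%), at 8.45 per 10000 windows, and chromosome 14 held 113 at 9.78 per 10000 windows, the highest density. Chromosome 16 followed with 5.40 per 10000, while chromosomes 10 and 11 had 4 members each, at 0.36 and 0.44 per 10000. Members were no denser near chromosome ends: 7.68% of them lay within 5 Mb of an end, against 7.64% of all autosomal windows.

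**Figure D2:**
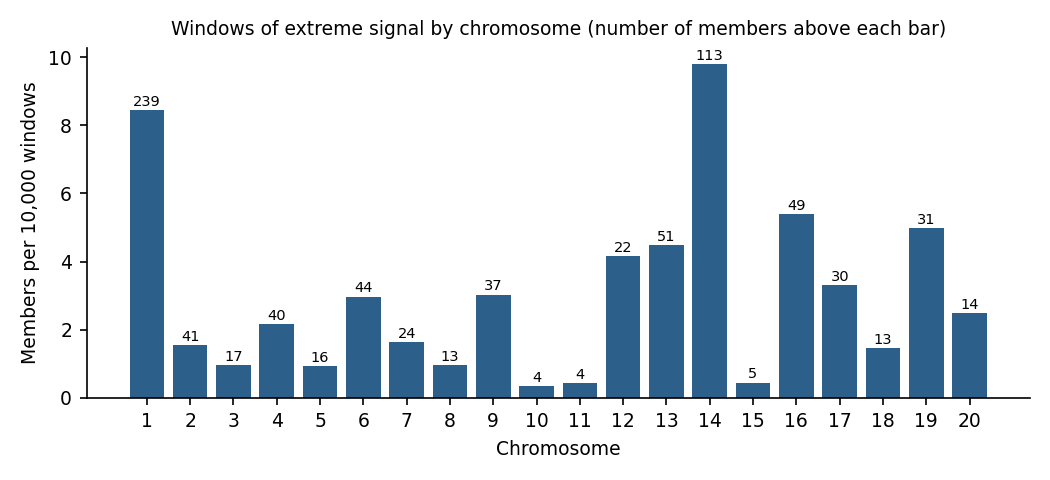
Members per 10000 windows on each of chromosomes 1 to 20, with the number of members above each bar. Chromosomes 14 and 1 stand highest at 9.78 and 8.45 per 10000, and chromosomes 10, 11 and 15 lowest at 0.36, 0.44 and 0.45.

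They were also clustered along chromosomes. Adjacent members formed 399 runs, of which 219 were single windows, and 588 members (72.9%) lay in runs of at least 2. With gaps of up to 100 kb joined there were 197 clusters, 95 of them with 1 member, and 33 clusters of at least 5 members held 538 members (66.7%). The 5 largest held 272 (33.7%). The largest, chr14:46517001-46686000, had 90 members in 169 windows, so that 53.3% of its span was above the threshold. The cluster at chr1:11903001-11975000 was as dense, with 40 members in 72 windows (55.6%). The cluster at chr1:180492001-181296000, which holds the highest windows, was sparse instead, with 74 members in 804 windows (9.20%) and a median window of 0 RPKM in its span in F1 control sperm. At chr13:33475001-33821000, 39 members stood among 346 windows (11.3%), also with a median of 0 RPKM in F1 control sperm, and at chr16:21677001-22122000 there were 29 among 445 windows (6.52%).

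The signal was narrow around most runs. At the highest member of a run the median over 399 runs was 16.0 RPKM in F2 ifosfamide, 15.1 RPKM in F1 ifosfamide and 15.6 RPKM in F1 control sperm. The window just before it, whether a member or not, had a median of 4.79 RPKM in F2 ifosfamide, 4.81 RPKM in F1 ifosfamide and 4.87 RPKM in F1 control sperm, and 5 kb before it the medians were 0.66, 0.64 and 0.65 RPKM in the same order of groups. At 20 kb they were 0.37, 0.39 and 0.38 RPKM, still above the autosomal median of 0.27 RPKM. The 759 windows that touch a member without being one had medians of 2.81 RPKM in F2 ifosfamide, 2.78 RPKM in F1 ifosfamide and 2.73 RPKM in F1 control sperm. A read can be counted in adjacent windows, so these windows share reads with the members.

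**Figure D3:**
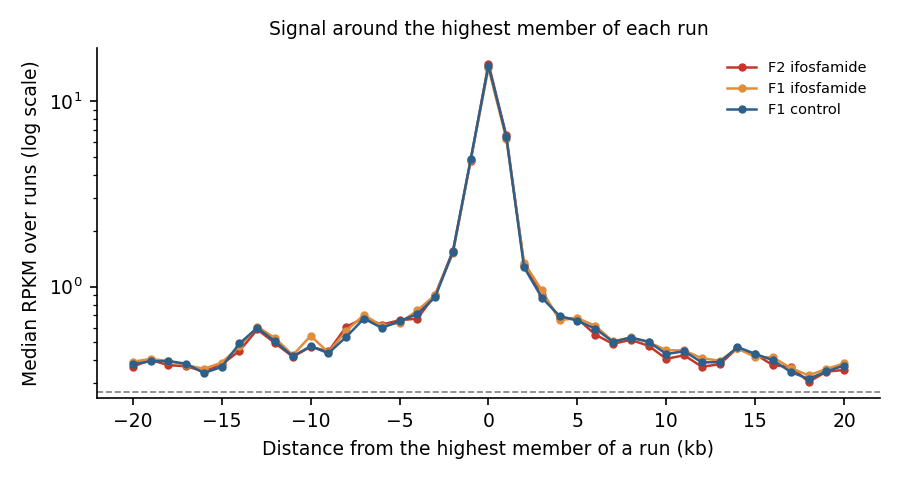
Median RPKM on a log axis at the highest member of each of 399 runs (0 kb) and up to 20 kb on either side of it, for F2 ifosfamide, F1 ifosfamide and F1 control sperm; the dashed line is the median autosomal window in F1 control sperm (0.27 RPKM). The curves of the 3 groups nearly coincide, and in F2 ifosfamide sperm the median is 16.0 RPKM at the highest member and 0.66 RPKM 5 kb before it.

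Most members were as extreme in the ifosfamide lineage. In F2 ifosfamide sperm 784 of the 807 members (97.1%) averaged at least 10 RPKM, and in F1 ifosfamide sperm 726 (90.0%) did. All 6 pools were at or above 10 RPKM in 667 members (82.7%) in F2 ifosfamide and in 613 (76.0%) in F1 ifosfamide sperm. The lowest member mean was 8.28 RPKM in F2 ifosfamide and 5.81 RPKM in F1 ifosfamide sperm, the last being 21.4 times the median autosomal window of that group. Of the 81 members below 10 RPKM in F1 ifosfamide sperm, 79 had a control mean under 15 RPKM, 67 averaged at least 10 RPKM in F2 ifosfamide sperm and 14 were below it in both groups. Outside the members, 223 autosomal windows averaged at least 10 RPKM in F2 ifosfamide and 155 in F1 ifosfamide sperm, isolated windows included. Across the 807 members, which are not independent of each other and were chosen for high control values, log2 mean RPKM correlated with the control at r = 0.98 in F2 ifosfamide and r = 0.97 in F1 ifosfamide sperm.

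Pools of a group differed at the members by more than counting error. The median coefficient of variation (CV) over 6 pools was 11.9% in F2 ifosfamide, 13.9% in F1 ifosfamide and 13.4% in F1 control sperm, against 4.53%, 4.47% and 4.93% expected from the counts alone. The highest pool had at least 2 times the lowest in 13 members in F2 ifosfamide, 77 in F1 ifosfamide and 112 in F1 control sperm. A 3-fold range occurred in 0, 4 and 50 members in F2 ifosfamide, F1 ifosfamide and F1 control sperm. F2 pools held 8 to 9 males and F1 pools 3 to 4, so generation and pool size cannot be told apart in these spreads. Some F2 males may also be in more than 1 pool, as may F1 ifosfamide males if any pool held 4. The part of this in the spreads was not tested. Between pairs of pools of a group, chi-square per degree of freedom was 4.94 to 36.1 over the members and 1.03 to 1.39 over all autosomal windows, which have far fewer counts each.

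Single windows showed how far the spread reached. In F2 ifosfamide sperm the smallest CV was 2.43% at chr1:55220001-55221000, where pools had 26.9 to 28.9 RPKM, and the largest was 33.1% at chr15:95220001-95221000, where they had 6.00 to 14.2 RPKM. In F1 ifosfamide sperm CVs ran from 3.37% at chr16:21843001-21844000, with 10.5 to 11.6 RPKM, to 52.2% at chr19:56339001-56340000, with 9.51 to 33.1 RPKM. At the chromosome 19 window the F1 control pools spread as widely, from 6.68 to 24.2 RPKM, while the F2 ifosfamide pools lay between 10.5 and 20.8 RPKM.

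Whole clusters differed between pools. In the chromosome 14 cluster of 90, the pool means over members were 38.1, 42.2 and 47.4 RPKM at the lowest, median and highest F2 ifosfamide pool, 41.9, 44.5 and 47.4 RPKM in F1 ifosfamide pools and 28.9, 34.9 and 44.3 RPKM in F1 control pools. The chromosome 1 cluster of 40 had pool means of 27.4 to 34.8 RPKM in F2 ifosfamide, 29.3 to 34.6 RPKM in F1 ifosfamide and 20.8 to 29.7 RPKM in F1 control sperm. In both, 5 of 6 control pools lay below all ifosfamide pools of F1, and control pool 3 lay above the lowest of them. The 2 clusters with the highest windows had other patterns: the chromosome 1 cluster of 74 averaged 91.0 ± 11.2, 97.0 ± 7.31 and 97.7 ± 9.33 RPKM, and the chromosome 13 cluster of 39 averaged 53.0 ± 7.80, 56.2 ± 4.92 and 56.3 ± 4.82 RPKM in F2 ifosfamide, F1 ifosfamide and F1 control sperm (SD, n = 6 each). F1 ifosfamide pools 1 and 2 were together the highest of their group in 12 of the 33 clusters of at least 5 members and together the lowest in 8. Among single members they were both highest in 231 (28.6%) and both lowest in 149 (18.5%). This was not counted over all autosomal windows, and members of a cluster are not independent.

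**Figure D4:**
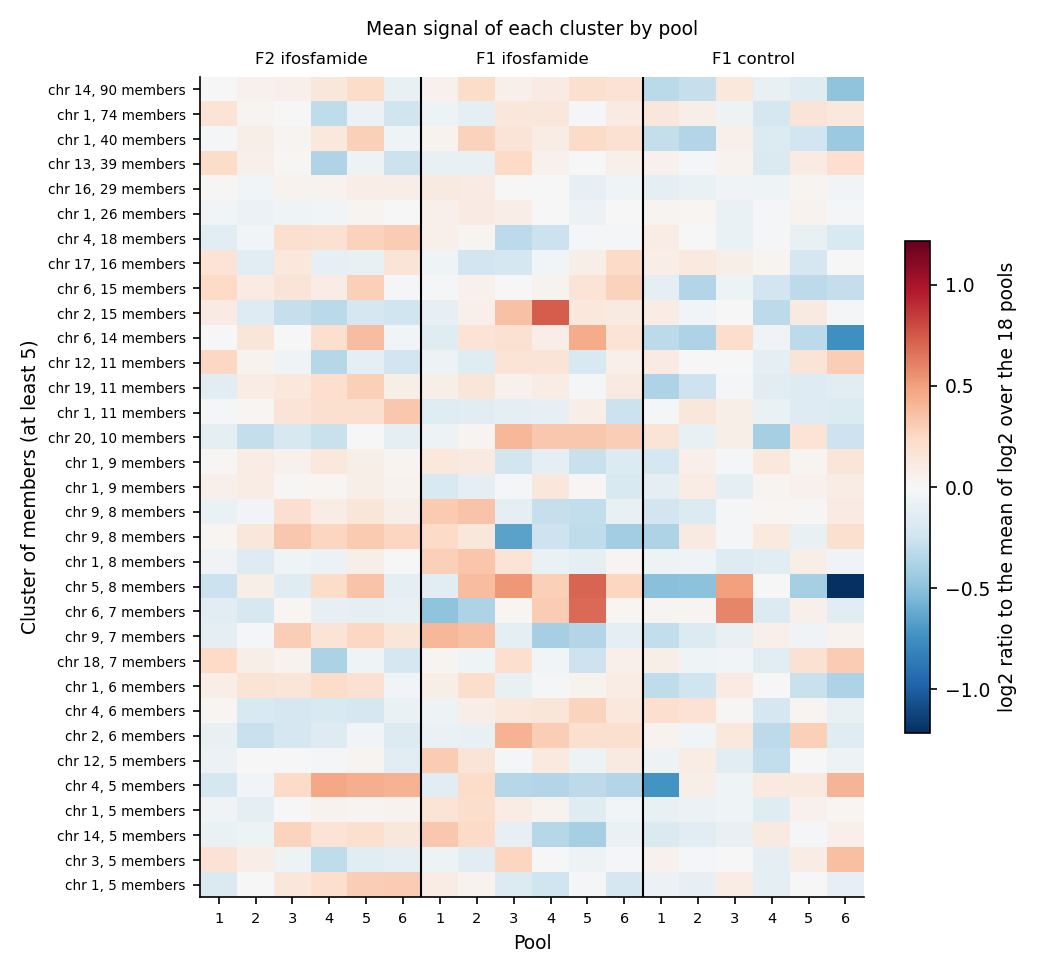
Mean RPKM of the members of each of the 33 clusters with at least 5 members (rows, largest at the top) in the 6 F2 ifosfamide, 6 F1 ifosfamide and 6 F1 control pools (columns), as log2 ratio to the mean of log2 values over all 18 pools. F1 ifosfamide pools 1 and 2 share the highest values of their group in 12 rows and the lowest in 8, and the chromosome 14 cluster of 90 and the chromosome 1 cluster of 40 are higher in the ifosfamide pools than in most control pools.

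F2 and F1 ifosfamide sperm were compared to see whether the members differed between generations of the treated lineage. Of the 807 members, all of which passed the filter on low counts, 155 (19.2%) were called by edgeR's quasi-likelihood test (adjusted p under 0.05), 119 higher and 36 lower in F2. Over all windows tested 22806 of 1062540 were called, which is 2.15%, with 1.25% higher and 0.898% lower. The members' share was above that background, but members also have far more counts than the average window. Among the 1806 other windows with a mean of 5 to 10 RPKM in F1 control sperm, 493 (27.3%) were called, 438 higher and 55 lower, so the share was not larger in the members than in windows of the next level down. The median log2 fold change was 0.06 over the members, -0.005 over all windows tested and 0.15 over windows of 5 to 10 RPKM. Member changes were small, with log2 fold changes from -0.68 to 0.98. In 35 of the 155 called members the pools of the groups did not overlap. Over all 807 members, the F2 pools lay all above in 34 and all below in 13. Overlap was not counted over all windows, so no more is read from these numbers. Generation and pool size cannot be told apart in this comparison. The edgeR tests take the pools as independent, which pools that share males would not be. All pools of both groups also descend from the same 5 F0 males, and the part of shared descent was not tested. Without F1 ifosfamide pools 1 and 2 there were 268 called members, 174 higher and 94 lower, beside 63927 of 1079080 windows. Their fit gave a median log2 fold change of 0.0265 over the members. There were 101 called members without F1 ifosfamide pool 3, beside 9116 of 1125258 windows. Without F2 ifosfamide pool 3 there were also 101, beside 9665 of 1102188 windows.

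Members called higher in F2 had a median of 15.9 RPKM in F2 ifosfamide, 11.1 RPKM in F1 ifosfamide and 15.3 RPKM in F1 control sperm. For members called lower the medians were 21.3, 30.0 and 19.0 RPKM in F2 ifosfamide, F1 ifosfamide and F1 control sperm. In both directions the medians of F2 ifosfamide and F1 control sperm were closer to each other than to that of F1 ifosfamide sperm, in windows picked by the F2 to F1 ifosfamide difference itself. Control means of at least 10 RPKM were also fixed by the choice of members, so no more is read from this nearness. Beside this, F1 ifosfamide pools 1 and 2 were the highest of their group in 62 of the 119 members called higher, against 168 of the 652 not called, and F2 ifosfamide pool 1 was the lowest of its group in 95 of the 119, against 219 of the 652 not called. The part of these pools and of windows per read in the result was not tested beyond leaving the pools out and adding windows per read to the fit. That addition gave 221 called members, 145 higher and 76 lower, beside 44733 of 1062540 windows.

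The called members with the smallest p were all higher in F2 ifosfamide sperm. At chr10:37122001-37123000, a single member, the lowest, median and highest pool had 9.81, 16.0 and 17.8 RPKM in F2 ifosfamide, 6.36, 7.21 and 10.01 RPKM in F1 ifosfamide and 7.96, 10.6 and 15.4 RPKM in F1 control sperm. Only the lowest F2 pool overlapped the F1 ifosfamide pools, and the log2 fold change was 0.96 (SE 0.12) with an adjusted p of 9.68e-08 in the edgeR fit. Another single member of chromosome 10, chr10:35028001-35029000, had 11.0, 15.2 and 16.9 RPKM in F2 ifosfamide, 6.43, 7.59 and 9.56 RPKM in F1 ifosfamide and 7.92, 10.9 and 17.3 RPKM in F1 control sperm, with no overlap between F2 and F1 ifosfamide pools (log2 fold change 0.92, SE 0.11). The change at chr1:180810001-180811000 was the largest, at 26.8, 30.2 and 39.9 RPKM in F2 ifosfamide, 11.1, 16.6 and 20.8 RPKM in F1 ifosfamide and 17.2, 32.1 and 36.8 RPKM in F1 control sperm (log2 fold change 0.98, SE 0.13). This window lies in the same run of 7 as the highest member of all, and was the only one of the 74 members of that cluster called higher.

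Short runs and single members made up the rest. A run of 2 at chr1:56789001-56790000 and chr1:56790001-56791000 averaged 13.4 ± 1.27 and 19.7 ± 1.45 RPKM in F2 ifosfamide, 7.47 ± 1.81 and 12.0 ± 1.98 RPKM in F1 ifosfamide and 13.2 ± 3.48 and 20.1 ± 5.20 RPKM in F1 control sperm. Another, at chr4:182018001-182019000 and chr4:182019001-182020000, averaged 13.0 ± 1.56 and 12.9 ± 1.61 RPKM in F2 ifosfamide, 7.86 ± 1.28 and 7.47 ± 1.34 RPKM in F1 ifosfamide and 13.8 ± 4.51 and 13.7 ± 4.97 RPKM in F1 control sperm. In these 4 windows all F2 pools lay above all F1 ifosfamide pools, with log2 fold changes of 0.74 to 0.86. The last 3 of the 10 windows with the smallest p were chr7:140573001-140574000 (15.1 ± 2.99 RPKM in F2 ifosfamide, 7.83 ± 2.85 RPKM in F1 ifosfamide, 10.7 ± 2.86 RPKM in F1 control sperm), chr15:18499001-18500000 (14.2 ± 2.73, 8.19 ± 1.58 and 13.0 ± 3.52 RPKM) and chr6:11629001-11630000 (23.8 ± 5.63, 14.0 ± 2.00 and 17.6 ± 3.88 RPKM). All 10 remained called under each of the 20 alternatives run for them.

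The direction of the called members differed by the size of the cluster they lay in. Among the 95 members that were alone in their cluster, 42 were called (44.2%), 39 higher and 3 lower in F2, with a median log2 fold change of 0.33. In clusters of 2 to 4 members 54 of 174 were called (31.0%), 50 higher and 4 lower, with a median of 0.17. In clusters of at least 5 members 59 of 538 were called (11.0%), 30 higher and 29 lower, with a median of 0.03. Called members thus lay mostly outside the large clusters. Level moved with cluster size. The F1 control median was 12.1 RPKM for lone members, 14.7 RPKM for clusters of 2 to 4 and 20.7 RPKM for larger ones. By F1 control level, 101 of 465 members under 20 RPKM were called, 51 of 243 from 20 to 50 RPKM and 3 of 99 of at least 50 RPKM. The share called was thus about the same in the lower level classes and smaller only in the highest. A difference between the classes of cluster size was not tested. Cluster size follows from the choice of members, and the members of a cluster are not independent.

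**Figure D5:**
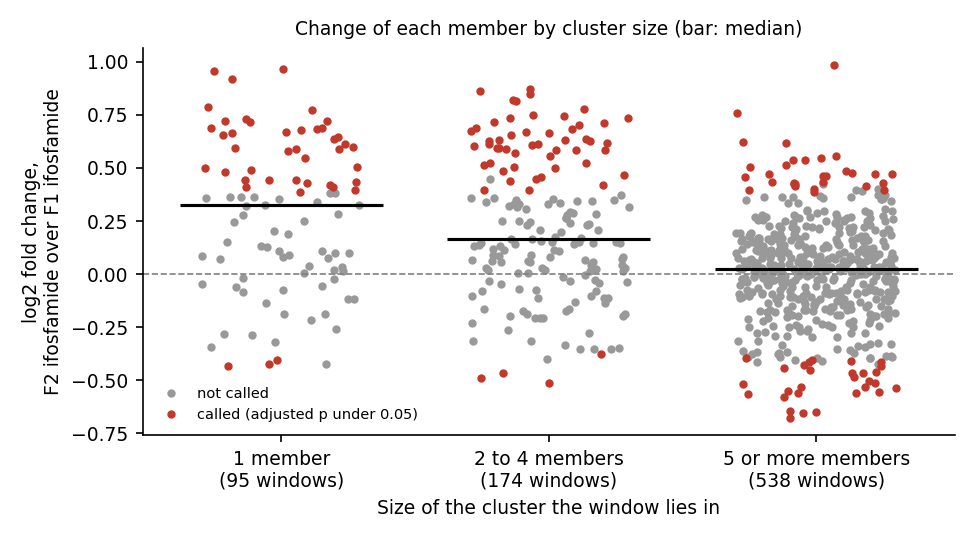
Log2 fold change of each of the 807 members, F2 ifosfamide over F1 ifosfamide (edgeR), by the size of the cluster the window lies in, with the median as a bar and members called at an adjusted p under 0.05 in red. Medians are 0.33, 0.17 and 0.03, and called members lie mostly above 0 in the classes of 1 and of 2 to 4 members and on both sides of it in the class of 5 or more.

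Some clusters had 1 direction throughout. On chromosome 2, all 15 members of chr2:49293001-49367000 were below 0, 6 of them called lower, and the pool means were 16.6, 17.9 and 22.4 RPKM at the lowest, median and highest F2 ifosfamide pool, 19.5, 22.6 and 34.9 RPKM in F1 ifosfamide pools and 16.8, 20.7 and 22.5 RPKM in F1 control pools. F1 ifosfamide pool 4, at 34.9 RPKM, was the highest of all. The cluster of 10 at chr20:27461001-27476000 averaged 81.8 ± 6.26 RPKM in F2 ifosfamide, 107 ± 13.4 RPKM in F1 ifosfamide and 88.9 ± 13.8 RPKM in F1 control sperm, with 1 member called lower. The reverse held on chromosome 9, where 6 of 8 members of chr9:40512001-40525000 were called higher, at 35.4 ± 2.85 RPKM in F2 ifosfamide, 26.7 ± 6.32 RPKM in F1 ifosfamide and 30.3 ± 4.08 RPKM in F1 control sperm. There the F1 ifosfamide pools 1 and 2, at 35.5 and 33.3 RPKM, lay within the F2 range and pools 3 to 6 lay between 19.3 and 25.4 RPKM. The chromosome 14 cluster of 90 was mixed, with 49 members above 0, 2 called higher and 10 called lower. So was the chromosome 1 cluster of 40, with 20 members above 0, 0 called higher and 5 called lower. These clusters were chosen after their values were seen.

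Both comparisons with F1 control sperm use the pools that chose the members and the same 6 control pools, so the counts are given beside their background without more being read from them. Control pools descend from 3 F0 males given PBS and ifosfamide pools from 5 given ifosfamide. Treatment and founder family thus cannot be told apart, and the pools of a group are related. In F1 ifosfamide against F1 control sperm, edgeR called 56 members (6.94%), 15 higher and 41 lower, where 0.0598% of all windows tested were called, 0.00546% higher and 0.0543% lower. Among windows of 5 to 10 RPKM 64 of 1806 (3.54%) were called, 1 higher and 63 lower. All 16 calls among lone members and all 23 calls in clusters of 2 to 4 members were lower. The clusters of at least 5 held 15 higher and 2 lower calls, with 7 of the higher ones in the chromosome 14 cluster of 90 and 5 in the chromosome 1 cluster of 40. Without F1 control pool 6 the count was 16, beside 178 of 1123329 windows. Without F1 ifosfamide pool 3 it was 18, beside 159 of 1126321. It was 27 without F1 control pool 4, beside 173 of 1129495, and 34 without F1 control pool 2, beside 352 of 1084891. Without F1 ifosfamide pool 6 it was 35, beside 309 of 1087044. Without F1 ifosfamide pools 1 and 2 together it was 112, beside 4205 of 1045904 windows. With windows per read in the fit 80 members were called, 48 higher and 32 lower, beside 609 of 1043656 windows. The balance of directions also shifted without F1 control pool 3, with 72 called members, 43 higher and 29 lower, beside 389 of 1124230 windows. Without F1 control pool 4 there were 14 higher and 13 lower.

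Examples show both directions. At chr16:51028001-51029000 pools had 14.5, 19.3 and 25.2 RPKM at the lowest, median and highest F1 ifosfamide pool against 25.8, 31.4 and 48.9 RPKM in F1 control pools, with no overlap, a log2 fold change of -0.90 (SE 0.14) and an edgeR adjusted p of 0.00024. Its F2 ifosfamide pools had 28.2 to 34.9 RPKM. The windows chr19:30039001-30040000 and chr15:95220001-95221000 averaged 6.36 ± 2.62 and 5.81 ± 2.70 RPKM in F1 ifosfamide, against 11.7 ± 3.76 and 10.9 ± 3.73 RPKM in F1 control sperm. Higher in F1 ifosfamide sperm were chr1:11908001-11909000 with 40.4 ± 10.3 RPKM against 21.4 ± 7.57 RPKM in F1 control sperm and chr5:91130001-91131000 with 20.9 ± 6.13 RPKM against 11.2 ± 3.42 RPKM in F1 control sperm. Pools overlapped at these last 4 windows, and DESeq2 called none of them (adjusted p from 0.12 to 0.28). The chromosome 19 and 15 windows were not called with windows per read in the edgeR fit either (adjusted p of 0.18 and 0.14), nor was chr1:180810001-180811000, called lower in F1 ifosfamide sperm in the fit without it (adjusted p of 0.051 with it).

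Between F2 ifosfamide and F1 control sperm 5 members (0.62%) were called by edgeR, all higher, where 0.0311% of all windows tested were called, 0.0186% higher and 0.0125% lower. Among windows of 5 to 10 RPKM 17 of 1806 (0.941%) were called, 15 higher and 2 lower. The 5 members lay in the clusters on chromosomes 14, 1 and 6. At chr14:46683001-46684000 the means were 16.4 ± 4.30 RPKM in F2 ifosfamide against 10.1 ± 3.39 RPKM in F1 control sperm, with a log2 fold change of 0.68 (SE 0.13) and an edgeR adjusted p of 0.0088. The other 4 were chr6:31050001-31051000 (24.3 ± 4.70 RPKM in F2 ifosfamide against 15.9 ± 3.28 RPKM in F1 control sperm), chr1:11928001-11929000 (18.4 ± 2.74 against 12.6 ± 1.00 RPKM), chr14:46527001-46528000 (18.1 ± 3.59 against 12.1 ± 2.81 RPKM) and chr6:30646001-30647000 (15.2 ± 2.79 against 10.5 ± 1.47 RPKM), with log2 fold changes of 0.53 to 0.59. Pools of the groups overlapped in all 5. DESeq2 called 8 members, but of these 5 windows it called chr1:11928001-11929000 alone, with adjusted p of 0.507 at chr14:46683001-46684000, 0.053 at chr6:31050001-31051000, 0.373 at chr14:46527001-46528000 and 0.063 at chr6:30646001-30647000. The edgeR count did not hold up against leaving out pools. It was 0 without F1 control pool 2 or F2 ifosfamide pool 5 and 1 without F1 control pool 5. It was 2 without any 1 of F2 ifosfamide pools 2, 3 and 4. Without F1 control pools 1, 4 and 3 and F2 ifosfamide pool 1 it was 8, 10, 18 and 24. With all 18 pools in 1 fit it was 0, beside 56 of 1128740 windows. Over the pools left out, windows called ran from 72 of 953882 (without F1 control pool 2) to 1501 of 952622 (without F2 ifosfamide pool 1). At an unadjusted edgeR p under 0.05 there were 183 members. The share of all windows at that level is not given here, so nothing is read from this number.

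The authors' deposited table of F1 lists 24 members at an adjusted p under 0.05, 10 higher and 14 lower in ifosfamide sperm after its log2 values, which run control over ifosfamide, were turned, beside 0.0225% of its windows with a p. The authors' deposited table of F2 lists 9 members, all higher in ifosfamide sperm, beside 0.0216% of its windows.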

How the data were processed

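Counts of 18 of the 34 MeDIP-seq libraries were used. The F0 libraries and those of the F2 control lineage, 16 in all, were not analysed here. The submitters' processing notes name the build Rnor_6.0 and the tools Bowtie2, SAMtools, Trimmomatic, FastQC and edgeR, with versions not given in the sources used here. The authors deposited read counts per 1 kb window and, per the file headers, RPKM values beside them, in 2 tables that share 6 identical control libraries and were joined. The p-values and log2 fold changes of the authors' deposited tables were used only where named. Levels here are the authors' RPKM, scaled by library reads and not for CpG density.

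For every comparison the deposited counts of its 12 pools were fitted over all windows with edgeR 4.0.16 in R 4.3.3 (filterByExpr with a minimum count of 10, TMM scaling, two-sided quasi-likelihood test, Benjamini-Hochberg adjustment over all tested windows). A window is termed called at an adjusted p under 0.05, and SE is the standard error of a log2 fold change. DESeq2 1.42.0, other scalings, no filter, a fit of all 18 pools, a replicate block and leaving out each pool were alternatives. The script was tested on simulated data. Clusters join members up to 100 kb apart, and coordinates count from 1. The expected counting CV is that of Poisson counts at the members' mean count.

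Named windows are the 5 highest members, the highest member of each of the 5 longest runs, up to 10 called members with the smallest p per comparison, the 3 nearest windows on either side of the threshold, and the smallest and largest CV in each ifosfamide group. The members and lists were chosen with earlier results of these data known. Intervals were not formed for single pools, since the spread over 6 pools is given. Sequences and gene names would need a genome of the build of the files, which was not used here.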

Additional observations from a re-analysis of the deposited data

Results flagged for a closer look

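Values of 6 pools were screened in 165 groups (39 named windows, 15 clusters of at least 10 members and the share of counts in members, in 3 groups of pools each) for a pool whose gap to the nearest other, as a share of the range, exceeded Dixon's critical value. Chance alone flags about 1 in 20 groups, and 4 were found. At chr2:49365001-49366000, F2 ifosfamide pool 1 had 31.64 RPKM, above 21.96 to 24.77 RPKM in the other F2 ifosfamide pools. Over the whole chromosome 2 cluster of 15 members the same pool averaged 22.42 RPKM, against 16.63 to 18.69 RPKM in the other F2 ifosfamide pools. F1 control pool 4 was low in that cluster, at 16.78 RPKM against 20.47 to 22.47 RPKM in the other F1 control pools. At chr14:46531001-46532000, F1 control pool 1 had 109.16 RPKM, against 65.51 to 81.16 RPKM in the other F1 control pools.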

How the results depend on the processing

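The named windows called in a comparison kept their sign there under the alternatives run. Log2 fold changes of F2 over F1 ifosfamide that missed the threshold ranged across 0 at chr14:46531001-46532000 (-0.0326 to 0.199), chr1:11945001-11946000 (-0.0336 to 0.0543) and chr19:56339001-56340000 (-0.51 to 0.007), the last being called lower with windows per read in the fit and without F1 ifosfamide pools 1 and 2. The balance of calls shifted under some alternatives. Windows called for F2 over F1 ifosfamide were 13268 higher and 9538 lower, but 22013 higher and 22720 lower with windows per read in the fit. Members called for F1 ifosfamide over F1 control were 15 higher and 41 lower, but 48 and 32 with windows per read in the fit, 43 and 29 without F1 control pool 3, and 14 and 13 without F1 control pool 4. The number of members stayed within 1.5 times 807, at 1139 and 641 with thresholds of 8 and 12 RPKM and 800 to 832 without each F1 control pool. With the recovered reads in place of autosomal counts as the total, the members' share was 2.81% in F2 ifosfamide, 2.85% in F1 ifosfamide and 2.72% in F1 control sperm. Leaving out each pool gave shares of 2.41% to 2.46% in F2 ifosfamide, 2.40% to 2.44% in F1 ifosfamide and 2.34% to 2.38% in F1 control sperm.

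For F2 over F1 ifosfamide, the 22806 windows called became 14282 with no low-count filter, 7901 with DESeq2, 44733 with windows per read in the fit and 63927 without F1 ifosfamide pools 1 and 2. Leaving out each pool gave 9116 (without F1 ifosfamide pool 3) to 37607 (without F1 ifosfamide pool 1), and 101 to 211 called members. Members called were 268 without F1 ifosfamide pools 1 and 2. Their median log2 fold change was 0.022 with windows per read in the fit, 0.0265 without F1 ifosfamide pools 1 and 2 and 0.038 to 0.077 over the pools left out. For F1 ifosfamide over F1 control, 1010 windows were called with all 18 pools in 1 fit, 333 with DESeq2, 4205 without F1 ifosfamide pools 1 and 2, and 159 to 2117 over the pools left out, the lowest without F1 ifosfamide pool 3 and the highest without F1 control pool 1. Members called were 112 without F1 ifosfamide pools 1 and 2 and 16 to 83 over the pools left out. For F2 ifosfamide over F1 control, 56 windows were called with all 18 pools in 1 fit, 27 with DESeq2 and 72 to 1501 over the pools left out, the lowest without F1 control pool 2 and the highest without F2 ifosfamide pool 1. Members called were 20 with no filter, 0 with all 18 pools in 1 fit, 9 with windows per read in the fit, 8 with DESeq2 and 0 to 24 over the pools left out. Leaving out F1 ifosfamide pools 1 and 2 and adding windows per read were chosen after seeing the data, and the cause of these shifts was not tested.

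Deviations of same-numbered pools correlated at -0.13 to 0.07 over all windows tested. These have far fewer counts each than the members, so the values do not decide whether replicate numbers pair the pools. As a hint from the data, not the design, 4 of 6 F2 ifosfamide pools correlated best with the F1 control pool of their own number, and 0 pools did so in the other 2 comparisons. With a replicate block, windows called were 14282 for F2 over F1 ifosfamide, against 22806 without it. They were 393 against 624 for F1 ifosfamide over F1 control and 714 against 286 for F2 ifosfamide over F1 control. Called members were 102, 43 and 26 in the same order, against 155, 56 and 5 without the block. The call at chr2:49365001-49366000 was lost under the block (log2 fold change -0.40, adjusted p = 0.12 by edgeR). Depth was not varied, and the lowest count of a member in a library was 88.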
